A study of Mus musculus with 9 samples.

Results

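Genes of the potassium channel nomenclature were taken as all rows of the deposited count table whose gene name begins with Kcn: 94 of 21899 genes measured. By class they were 40 voltage-gated subunits, 15 inward rectifiers, 14 two-pore channels, 9 calcium-activated channels and BK accessory subunits, 3 sodium- or pH-activated channels, and 13 cytoplasmic, single-span or calcium-binding auxiliary subunits and regulators. The classes follow textbook knowledge of each gene and not the values measured here. RNA was sequenced from the PVT (paraventricular thalamus, a midline nucleus tied to arousal) of wild-type (WT) mice. Groups of 3 libraries each came from mice killed 7 days after an intraperitoneal injection of LPS (lipopolysaccharide, a bacterial cell wall component), 1 day after LPS, and 1 day after PBS (phosphate-buffered saline). The sources used here give no dose, strain, age or sex, and do not say whether each library is 1 animal, so p-values measure the spread between these libraries, which may be technical. PBS at day 7 was not analysed here. The contrast of LPS at 7 days with PBS therefore carries day and treatment together.

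Potassium channels let potassium leave or enter the cell and so hold the resting potential, end each action potential and set the firing rate. Voltage-gated channels repolarise the spike, inward rectifiers and two-pore leak channels set the resting potential, and calcium-activated channels shape the afterhyperpolarisation. Thalamic relay neurons switch between tonic and burst firing with their membrane potential, which leak channels of the TASK and TREK families, inward rectifiers and A-type channels help to set, and glial inward rectifiers take up potassium released by firing neurons.

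Library totals ran between 13211422 and 17210526 counts. Levels are in CPM, counts scaled to the TMM-adjusted library total. The summed thalamus and PVT marker list, with all 10 genes counted in every group, stood at 862 to 882 CPM at LPS 7 days, 957 to 974 CPM at LPS 1 day and 1021 to 1028 CPM in PBS. Markers of neighbouring and distant regions also moved with the groups. The cerebellar list stood at 1668 to 1729 CPM at LPS 7 days, 131 to 141 CPM at LPS 1 day and 186 to 204 CPM in PBS, and all 11 of its genes were called higher at LPS 7 days against either other group. The hindbrain list stood at 69.8 to 79.5 CPM at LPS 7 days, 4.24 to 6.33 CPM at LPS 1 day and 6.58 to 9.28 CPM in PBS. Of its genes Hoxa4, Hoxb5 and Hoxc4 had no count in the LPS 1 day and PBS libraries, and Hoxb3 had none in the PBS libraries. The striatal list stood at 824 to 845 CPM at LPS 7 days, 1149 to 1165 CPM at LPS 1 day and 1912 to 1958 CPM in PBS, with 10 of 10 genes called lower at LPS 7 days and 9 of 10 at LPS 1 day, each against PBS. The oligodendrocyte list stood at 9318 to 9942 CPM at LPS 7 days, 6939 to 6967 CPM at LPS 1 day and 6955 to 7323 CPM in PBS. Mbp was the largest part of this sum, at means of 3641 CPM at LPS 1 day and 3667 CPM in PBS. Gene by gene, 5 of the 7 were called lower and 1 higher at LPS 1 day against PBS, with a median log2 fold change of -0.30. Counts of 4 Y-linked genes summed to 1530 to 1662 in the LPS 7 day libraries, 1057 to 1368 in the LPS 1 day libraries, and 1, 0 and 0 in the PBS libraries, where 3 counts correspond to 0.176 to 0.204 CPM. The Y-linked level is thus confounded with LPS against PBS, and the 2 cannot be told apart. In bulk tissue, fewer cells of a type and less RNA per cell cannot be told apart either. The part of any of these differences in the values of the channel genes was not tested.

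**Figure D1:**
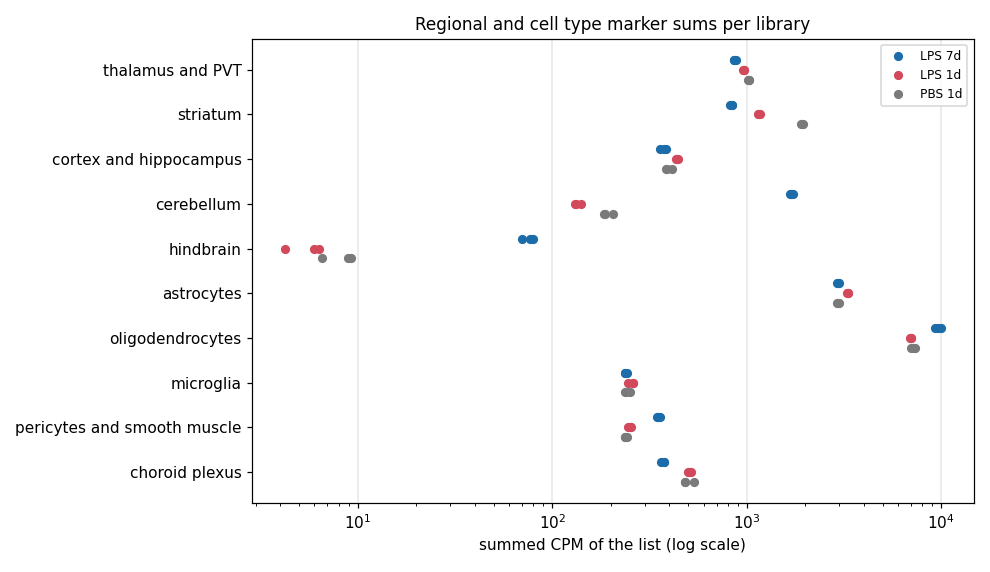
Summed CPM of each marker list (log axis) in every library, with 3 dots per group for LPS 7 days, LPS 1 day and PBS. The LPS 7 day libraries lie at 1668 to 1729 CPM for cerebellar markers, above all other libraries, while striatal markers separate all 3 groups.

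At 1 day, LPS against PBS is the comparison at a matched day. The Y-linked level and the striatal markers differ between the same groups. Their thalamus and PVT, cerebellar, hindbrain, cortex and hippocampus, astrocyte, endothelial, pan-neuronal, and pericyte and smooth muscle marker sums also lay in separate ranges. The pan-neuronal sum was 4444 to 4512 CPM at LPS 1 day and 4236 to 4359 CPM in PBS. Of its 6 genes 3 were called higher and 3 lower. The endothelial sum was 295 to 299 CPM at LPS 1 day and 242 to 250 CPM in PBS, with 4 of 6 genes called higher and 2 lower. The part of these differences was not tested. Of the 83 channel genes that passed the filter on low counts and were tested, 14 rose and 31 fell, and 38 did not pass the test (edgeR quasi-likelihood, Benjamini-Hochberg adjusted p under 0.05 over all 14837 genes tested). Among all genes tested 49.1% were called, 24.9% higher and 24.2% lower, so the 45 calls (54.2%) are close to the background in number. The median log2 fold change was -0.11 over the channel genes and -0.01 over all genes. The median of the channel genes was -0.06 without PBS replicate 1, -0.07 without PBS replicate 3 and -0.06 with no filter beyond 1 count. For 49 of the 83 the LPS and PBS libraries lay in separate ranges, where the background was 54.5%. In a test against a fold of 1.5, 2 remained called (4.36% of all genes), Kcna4 and Kcnk7. Kcnk7, which had no count in PBS and passed the filter only through its LPS libraries, is also 1 of the 14 rises; without it 13 rose. Among the calls, log2 fold changes past 1 in size were those of Kcnk7 and of 3 genes of at most a few CPM, Kcnk15 (-2.05 ± 0.75), Kcnj14 (-1.15 ± 0.29) and Kcnmb1 (-1.0 ± 0.30). Kcnq5, an M-current subunit, and Kcna1, a low-threshold axonal channel, rose with log2 fold changes of 0.51 ± 0.05 and 0.51 ± 0.05. Among the falls were Kcna4, the rapidly inactivating Kv1 subunit (-0.79 ± 0.08), Kcna6, another Kv1 subunit (-0.71 ± 0.05), and Kcnk13, the leak channel of microglia (-0.66 ± 0.11). Values after ± are the SE of the log2 fold change here and below unless SD is written.

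At 7 days, LPS against PBS gave 21 genes that rose, 32 that fell and 30 that did not pass. Among all genes 35.6% were called, 16.8% higher and 18.9% lower. The median log2 fold change was -0.19 over the channel genes and 0.00 over all genes (-0.12 for the channel genes without LPS 7 day replicate 2), and the median size of the change without its sign was 0.43 against 0.17. Groups did not overlap for 58 of the 83 genes, against a background of 44.2%. Against a fold of 1.5, 14 were called (3.63% of all genes), Kcnk7 among them. Without Kcnk7, 20 genes rose. The largest rise among genes above 1 CPM was that of Kcng4, a silent subunit of Kv2 channels (2.07 ± 0.09). Rises were also found for Kcnj16, a glial inward rectifier (1.14 ± 0.08), and the leak channel genes Kcnk10 and Kcnk3 (1.06 ± 0.10 and 0.99 ± 0.08). Kcnh4, an ELK channel (-1.58 ± 0.11), and Kcnj4, a strong inward rectifier of forebrain (-1.03 ± 0.06), fell.

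Between LPS at 7 days and LPS at 1 day, 25 genes rose, 35 fell and 23 did not pass, where 56.6% of all genes were called, 27.5% higher and 29.1% lower. The median log2 fold change was -0.08 over the channel genes and 0.00 over all genes. For the channel genes it moved to -0.13 without LPS 7 day replicate 1, LPS 7 day replicate 3 or LPS 1 day replicate 1, and to -0.02 with library totals. Groups did not overlap for 54 of the 83, and the background was 60.6%. Against a fold of 1.5, 16 were called (8.47% of all genes). Kcng4 (2.03 ± 0.09), Kcnj14, a strong inward rectifier (1.81 ± 0.27), Kcnk10 (1.36 ± 0.10) and Kcnk3 (1.32 ± 0.08) rose, and Kcne4, a single-span subunit (-1.32 ± 0.27), Kcnq5 (-1.18 ± 0.06) and Kcnh3, an ELK channel of forebrain (-0.97 ± 0.05), fell. The 3 comparisons share libraries, so their calls are not independent of one another.

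**Figure D2:**
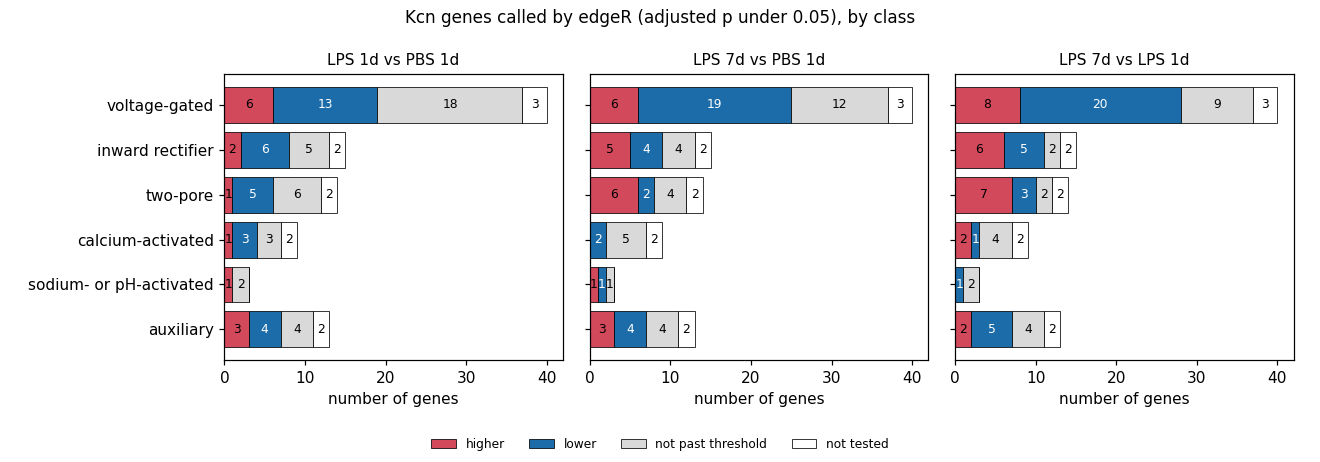
Number of Kcn genes (x axis) called higher or lower by edgeR, not past the threshold, or not tested, per class (y axis) and comparison (panels). Among voltage-gated genes falls outnumber rises in all 3 panels (13 against 6, 19 against 6, and 20 against 8), whereas two-pore genes show 6 rises, Kcnk7 among them, and 2 falls at LPS 7 days against PBS. Of all genes tested 24.2%, 18.9% and 29.1% were called lower in the 3 panels, and 24.9%, 16.8% and 27.5% higher.

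By class, voltage-gated genes (37 of 40 tested) had a median of -0.36 at LPS 7 days against PBS (-0.42 to -0.29 leaving out each library). Their calls were 6 rises and 19 falls at 7 days, and 6 rises and 13 falls at 1 day. Two-pore genes (12 of 14 tested) gave 6 rises and 2 falls at 7 days and 1 rise and 5 falls at 1 day. Kcnk7, with no count in PBS, is the 1 rise at 1 day and 1 of the 6 at 7 days; without it there were 5 rises and 2 falls at 7 days, and 0 rises and 5 falls at 1 day. The two-pore median at 7 days rested on single libraries: it was 0.20, and 0.03 without PBS replicate 2, 0.04 without LPS 7 day replicate 3 and 0.32 without PBS replicate 3. Inward rectifiers (13 of 15 tested) gave 5 rises and 4 falls at 7 days and 2 rises and 6 falls at 1 day. Called shares at 7 days were 67.6% of voltage-gated, 66.7% of two-pore (Kcnk7 included) and 69.2% of inward rectifier genes (all genes 35.6%). At 1 day they were 51.4%, 50% and 61.5% in the same order (all genes 49.1%), so voltage-gated and two-pore calls were near the background in number. Calcium-activated genes (7 of 9 tested) gave 0 rises and 2 falls at 7 days (28.6% called, all genes 35.6%). At 1 day they gave 1 rise and 3 falls (57.1% called, all genes 49.1%). Falls were 51.4% of voltage-gated genes at 7 days (all genes 18.9%) and 35.1% at 1 day (all genes 24.2%). No difference between classes was tested.

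In FPKM, which divides counts by gene length as well as by depth, the 94 genes together summed to 983 ± 4.45 at LPS 7 days, 917 ± 2.36 at LPS 1 day and 972 ± 13.6 in PBS (mean ± SD, n = 3). The deposited FPKM use unadjusted library totals, without the TMM factors. Those factors were 1.016 to 1.031 at LPS 7 days, 0.983 to 0.984 at LPS 1 day and 0.989 to 0.998 in PBS. The order of groups with close sums, such as LPS 7 days and PBS over all 94 genes, may therefore depend on the scaling. Voltage-gated genes summed to 446 ± 8.39 FPKM at LPS 7 days, 438 ± 4.45 at LPS 1 day and 455 ± 14.6 in PBS, and the ranges of the 3 groups overlapped. The inward rectifier sum was 227 ± 2.49 FPKM at LPS 7 days, 184 ± 2.89 at LPS 1 day and 213 ± 1.45 in PBS. The two-pore sum was 88.8 ± 1.70 FPKM at LPS 7 days, 66.8 ± 1.51 at LPS 1 day and 69.4 ± 2.38 in PBS. In PBS the highest single genes by FPKM were Kcnj10 (80.3), the potassium buffering channel of astrocytes, Kcnab2 (63.8), a cytoplasmic Kv1 subunit, Kcnj4 (43.2), Kcnc1 (35.3), a fast Kv3 channel, and Kcnd2 (34.3), an A-type channel of dendrites.

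**Figure D3:**
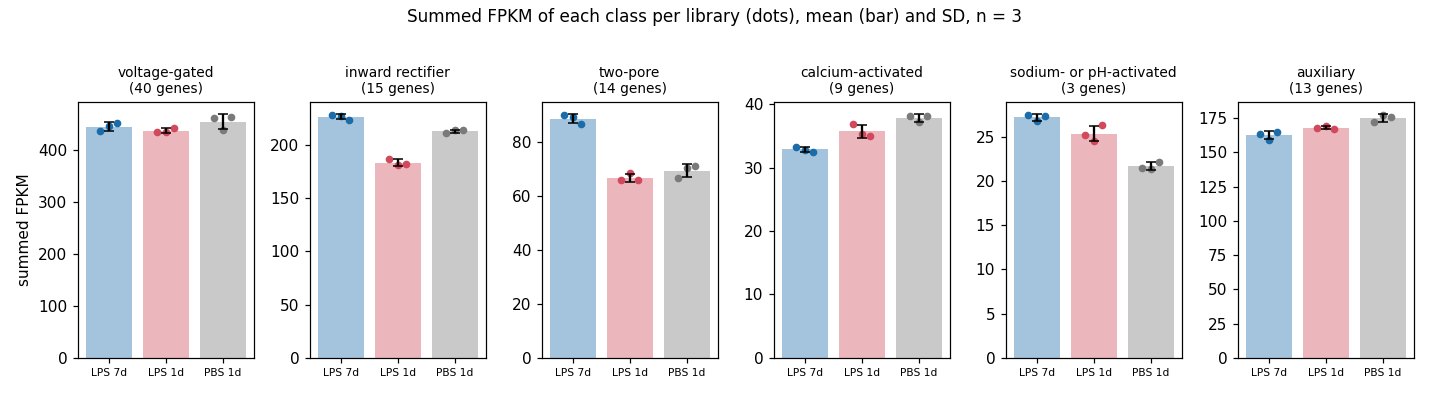
Summed FPKM of each class per library (dots), with the mean (bar) and SD, n = 3 per group, each panel on its own axis from 0. The two-pore and sodium- or pH-activated sums are highest at LPS 7 days (88.8 and 27.2 FPKM), the inward rectifier sum is lowest at LPS 1 day (184), and the calcium-activated sum is highest in PBS (37.9).

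The 250 bases before the RefSeq start (GRCm38.p6) are shown for Kcnk7, counted in LPS libraries and in no PBS library, and for 3 genes called at LPS 1 day whose windows hold letters of factors that act downstream of LPS: Kcnk13 and Kcnip3, which fell, and Kcnj16, which rose. The windows lie at chr19:5704221-5704470 (plus strand), chr12:99964249-99964498 (plus strand), chr11:110967783-110968032 (plus strand), the first of 4 RefSeq starts, and chr2:127522095-127522344 (minus strand), the first of 3. They are written 5′ to 3′ on the strand of the gene, with matches to any of 5 motifs searched on both strands in capitals.
Kcnk7: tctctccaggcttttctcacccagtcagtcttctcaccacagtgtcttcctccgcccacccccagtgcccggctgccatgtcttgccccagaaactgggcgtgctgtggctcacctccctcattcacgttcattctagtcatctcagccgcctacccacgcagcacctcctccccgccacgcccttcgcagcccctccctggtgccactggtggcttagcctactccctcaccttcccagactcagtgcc
Kcnk13: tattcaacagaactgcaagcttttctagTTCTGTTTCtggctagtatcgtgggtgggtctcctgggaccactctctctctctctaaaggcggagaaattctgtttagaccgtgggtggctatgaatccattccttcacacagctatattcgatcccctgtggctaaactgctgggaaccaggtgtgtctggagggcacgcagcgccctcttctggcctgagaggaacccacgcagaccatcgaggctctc
Kcnj16: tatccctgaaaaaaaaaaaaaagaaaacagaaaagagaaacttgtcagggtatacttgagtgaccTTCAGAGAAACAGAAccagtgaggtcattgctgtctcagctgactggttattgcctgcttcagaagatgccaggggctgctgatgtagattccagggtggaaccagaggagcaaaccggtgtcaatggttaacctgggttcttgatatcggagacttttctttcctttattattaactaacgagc
Kcnip3: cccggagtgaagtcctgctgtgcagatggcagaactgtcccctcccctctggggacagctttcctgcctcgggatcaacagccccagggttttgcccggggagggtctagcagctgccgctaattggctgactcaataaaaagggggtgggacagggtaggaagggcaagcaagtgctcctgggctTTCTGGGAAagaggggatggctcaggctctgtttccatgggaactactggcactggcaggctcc

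Capitals mark the interferon response core GAAANNGAA in Kcnk13, that core and the STAT letters TTCNNNGAA in Kcnj16, where the 2 overlap, and the STAT letters in Kcnip3; Kcnk7 held no match. Among the windows not shown, 1 of Kcnj16 held the interferon response core, and the others of Kcnj16 and Kcnip3 held no match. Of the member genes 69 had an entry in the RefSeq promoter table, with 94 windows of 250 bases. The interferon response core was found in 9 of these windows (9.57%) and in 7.13% of all 32851 windows, and the STAT letters in 7 (7.45%, all windows 7.02%). The 9 windows belong to Kcna7, Kcnab1, Kcnc2, Kcnj16, Kcnk13 and Kcnk18, so some genes were counted through more than 1 start. The glucocorticoid response letters ACANNNTGT stood in 5 (5.32%, all windows 5.84%) and the NF-kB letters GGANTTTCC in 1, that of Kcne2 (1.06%, all windows 1.07%). The CRE letters TGACGTCA stood in none (all windows 1.55%). The genes and motif letters were chosen with these results in view, and no motif was tested against a fold change. A match describes letters and not a binding site.

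Voltage-gated channels of the Kv1 family sit mostly on axons and set the threshold for firing. Kcna4 (chromosome 2, 107120984 to 107128847, GRCm39), the subunit that gives Kv1 channels rapid inactivation, stood at 22.6, 22.5 and 22.1 CPM at LPS 7 days, 20.3, 25.0 and 24.3 CPM at LPS 1 day and 39.8, 40.9 and 40.1 CPM in PBS. All 6 LPS libraries lay below all 3 PBS libraries, and the LPS groups overlapped each other. Against PBS its log2 fold change was -0.85 ± 0.08, adjusted p = 3.54e-13 at LPS 7 days and -0.79 ± 0.08, adjusted p = 5.35e-12 at LPS 1 day. Kcna6, which encodes Kv1.6, had 83.4, 81.9 and 78.3 CPM at LPS 7 days, 55.3, 51.4 and 52.3 CPM at LPS 1 day and 84, 89.4 and 87.0 CPM in PBS. It was lower at LPS 1 day only: -0.71 ± 0.05, adjusted p = 1.08e-15 against PBS at 1 day, with -0.10 ± 0.05, adjusted p = 0.153 at 7 days. Kcna1, the delayed rectifier Kv1.1, moved the other way and stood at 84.3, 87.7 and 101 CPM at LPS 7 days, 144, 138 and 144 CPM at LPS 1 day and 103, 94.5 and 101 CPM in PBS. The LPS 1 day libraries were above both other groups (0.51 ± 0.05, adjusted p = 1.02e-11, against PBS), and LPS 7 days did not pass against PBS (-0.13 ± 0.05, adjusted p = 0.0547).

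Kcna3, a channel of lymphocytes, microglia and some neurons, stood at 10.3, 10.2 and 10.4 CPM at LPS 7 days, 7.86, 9.16 and 9.49 CPM at LPS 1 day and 14.3, 10.8 and 14.2 CPM in PBS. Its call at LPS 1 day held leaving out each library (-0.56 ± 0.12, adjusted p = 1.79e-04), whereas that at LPS 7 days against PBS (-0.35 ± 0.12, adjusted p = 0.0196) was lost without LPS 7 day replicate 2 (adjusted p = 0.0525), without PBS replicate 1 (adjusted p = 0.124) or without PBS replicate 3 (adjusted p = 0.123). The microglial marker sum was 236 to 243 CPM at LPS 7 days, 245 to 259.8 CPM at LPS 1 day and 237 to 253 CPM in PBS. Kcna5, a channel of heart, vessels and glia, averaged 8.24 ± 0.298 CPM at LPS 7 days, 14.3 ± 0.547 CPM at LPS 1 day and 14.0 ± 0.958 CPM in PBS (SD, n = 3) and fell at LPS 7 days (-0.76 ± 0.11, adjusted p = 2.34e-07). Kcna2, the axonal Kv1.2 subunit, averaged 392 ± 11.3 CPM at LPS 7 days, 378 ± 2.72 CPM at LPS 1 day and 354 ± 18.0 CPM in PBS (SD, n = 3), a rise of 0.15 ± 0.04 at LPS 7 days against PBS. Its rise at LPS 1 day (0.09 ± 0.04, adjusted p = 0.037) was lost without LPS 1 day replicate 1 (adjusted p = 0.0896), without LPS 1 day replicate 2 (adjusted p = 0.0782), without LPS 1 day replicate 3 (adjusted p = 0.0712), without PBS replicate 2 (adjusted p = 0.285), with library totals (adjusted p = 0.0822) or with upper-quartile factors (adjusted p = 0.105).

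Kv2 channels are the main delayed rectifiers of the soma and dendrites, and silent Kv subunits join them without forming channels of their own. Kcng4 (chromosome 8, 120350593 to 120362419, GRCm39), a silent subunit, stood at 45.3, 48.7 and 54.4 CPM at LPS 7 days, 11.5, 12.4 and 12.3 CPM at LPS 1 day and 11.5, 11.1 and 12.7 CPM in PBS. Every LPS 7 day library was above every other library, and LPS 1 day and PBS overlapped. At LPS 7 days against PBS the log2 fold change was 2.07 ± 0.09, adjusted p = 4.71e-26, and at LPS 1 day it was 0.04 ± 0.11, adjusted p = 0.778. The cerebellar marker sum was higher in the same 3 libraries, and its part was not tested.

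Most other silent subunits went down. At LPS 7 days against PBS, 6 of the 9 tested silent subunit genes fell (66.7%, where 18.9% of all genes were called lower). Kcng4 rose, and Kcns3 (0.32 ± 0.17) and Kcng3 (-0.48 ± 0.27) did not pass. Kcnf1, which encodes Kv5.1, stood at 66.9, 67.3 and 69.2 CPM at LPS 7 days, 109, 108 and 108 CPM at LPS 1 day and 117, 104 and 115 CPM in PBS. The 7 day libraries lay apart and the other groups overlapped (-0.72 ± 0.05, adjusted p = 2.50e-17, LPS 7 days against PBS). Kcnv1, which encodes Kv8.1, fell at both times, with 24.6, 22.6 and 22.1 CPM at LPS 7 days, 25.7, 27.3 and 28.7 CPM at LPS 1 day and 40.5, 38.4 and 47.0 CPM in PBS. Its log2 fold changes against PBS were -0.86 ± 0.08, adjusted p = 3.54e-13 at LPS 7 days and -0.62 ± 0.08, adjusted p = 4.42e-09 at LPS 1 day. Kcns2 averaged 19.0 ± 1.77 CPM at LPS 7 days, 23.0 ± 2.33 CPM at LPS 1 day and 34.0 ± 2.64 CPM in PBS (SD, n = 3), with -0.84 ± 0.09, adjusted p = 1.52e-11 at LPS 7 days and -0.56 ± 0.09, adjusted p = 4.02e-07 at LPS 1 day. The fall of Kcng1 at LPS 1 day (-0.23 ± 0.07) was lost without LPS 1 day replicate 3 (adjusted p = 0.0708), and that of Kcns1 at LPS 7 days (-0.43 ± 0.14) was lost without LPS 7 day replicate 3 (adjusted p = 0.107) or without PBS replicate 1 (adjusted p = 0.0719). The striatal marker sum was lower in the LPS groups as well, and the cerebellar and hindbrain sums were highest at LPS 7 days. The part of these lists in the falls was not tested.

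Kv3 channels open at high voltage, close fast and let neurons fire at high rates. Kcnc2, the Kv3.2 gene, which is abundant in thalamus, stood at 138, 135 and 123 CPM at LPS 7 days, 169, 174 and 179 CPM at LPS 1 day and 191, 189 and 199.6 CPM in PBS. It was lowest at LPS 7 days (-0.55 ± 0.04, adjusted p = 5.28e-15, against PBS).

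Kcnc1, a Kv3 channel of fast-spiking neurons, averaged 459 ± 26.5 CPM at LPS 7 days, 307 ± 4.47 CPM at LPS 1 day and 335 ± 17.5 CPM in PBS (SD, n = 3), higher at LPS 7 days (0.45 ± 0.04, adjusted p = 7.82e-14, against PBS). Its fall at LPS 1 day (-0.13 ± 0.04, adjusted p = 0.00726) was lost without PBS replicate 1 (adjusted p = 0.0726). Kcnc4, the inactivating Kv3.4 gene, averaged 107 ± 3.11 CPM at LPS 7 days, 79.6 ± 2.22 CPM at LPS 1 day and 93.8 ± 2.44 CPM in PBS (SD, n = 3), with log2 fold changes against PBS of 0.19 ± 0.05, adjusted p = 0.00123 at LPS 7 days and -0.24 ± 0.05, adjusted p = 9.08e-05 at LPS 1 day. The cerebellar and hindbrain marker sums were higher in the LPS 7 day libraries, in which Kcnc1 and Kcnc4 stood highest, and the thalamus and PVT sum was lowest there. Their part was not tested.

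A-type channels of the Kv4 family delay firing, and the calcium-binding KChIP subunits bring them to the surface and tune their kinetics. Kcnd2, the dendritic Kv4.2 gene, stood at 179, 185 and 183 CPM at LPS 7 days, 139.7, 137 and 141 CPM at LPS 1 day and 182, 167 and 184 CPM in PBS. It fell at LPS 1 day (-0.35 ± 0.04, adjusted p = 2.87e-09), and the 7 day libraries overlapped the PBS libraries (0.04 ± 0.04, adjusted p = 0.476). Kcnd3, the Kv4.3 gene, averaged 119.9 ± 4.05 CPM at LPS 7 days, 141 ± 2.74 CPM at LPS 1 day and 116 ± 5.45 CPM in PBS (SD, n = 3) and rose at LPS 1 day (0.28 ± 0.05, adjusted p = 1.13e-06). Kcnd1 averaged 14.5 ± 1.22 CPM at LPS 7 days, 18.7 ± 2.67 CPM at LPS 1 day and 17.3 ± 2.67 CPM in PBS (SD, n = 3) and did not pass against PBS at either time.

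Among the KChIP genes, Kcnip2 (chromosome 19, 45780278 to 45804500, GRCm39) stood at 61.6, 57.4 and 62.2 CPM at LPS 7 days, 97.6, 100.4 and 96 CPM at LPS 1 day and 115, 121 and 123 CPM in PBS. The 3 groups did not overlap, with PBS highest and LPS 7 days lowest. Against PBS its log2 fold change was -0.98 ± 0.05, adjusted p = 1.82e-22 at LPS 7 days and -0.29 ± 0.05, adjusted p = 3.03e-06 at LPS 1 day. Kcnip3, which encodes KChIP3, also known as DREAM, had 92.3, 87.7 and 95.7 CPM at LPS 7 days, 69.1, 74.0 and 70.6 CPM at LPS 1 day and 92.4, 95.9 and 87.0 CPM in PBS. Only LPS 1 day stood apart among the groups, below both others (-0.37 ± 0.05, adjusted p = 1.08e-07, against PBS). Kcnip4 averaged 65.1 ± 3.32 CPM at LPS 7 days, 61.1 ± 3.72 CPM at LPS 1 day and 54.7 ± 2.45 CPM in PBS (SD, n = 3) and rose at LPS 7 days (0.25 ± 0.06, adjusted p = 5.30e-04). Its rise at LPS 1 day (0.16 ± 0.06) was lost without LPS 1 day replicate 2 (adjusted p = 0.13), without LPS 1 day replicate 3 (adjusted p = 0.0696) or without PBS replicate 3 (adjusted p = 0.078). The fall of Kcnip1 at LPS 7 days (-0.18 ± 0.06) was lost without LPS 7 day replicate 1 (adjusted p = 0.0947), without LPS 7 day replicate 2 (adjusted p = 0.0728), without PBS replicate 3 (adjusted p = 0.219), with library totals (adjusted p = 0.0873) or with DESeq2 (adjusted p = 0.0502). Kcnip4 overlaps 5730480H06Rik and Kcnip1 overlaps Kcnmb1 and 4930469K13Rik; whether counting used the strand is not given in the sources used here, so their counts may mix. The striatal sum fell together with Kcnip2, and its part was not tested.

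Kv7 subunits carry the M-current, which brakes repeated firing. Kcnq5 (chromosome 1, 21468627 to 22032166, GRCm39) stood at 48.7, 49.8 and 54.9 CPM at LPS 7 days, 111, 114 and 123 CPM at LPS 1 day and 77.8, 80.2 and 86.3 CPM in PBS. The groups did not overlap: LPS 1 day was highest and LPS 7 days lowest. The log2 fold change was -0.67 ± 0.06, adjusted p = 2.62e-14 at LPS 7 days and 0.51 ± 0.05, adjusted p = 1.88e-11 at LPS 1 day, each against PBS, and -1.18 ± 0.06, adjusted p = 2.50e-24 between the LPS days. Kcnq3, another M-current subunit, had 170.5, 172 and 174 CPM at LPS 7 days, 248, 269 and 267 CPM at LPS 1 day and 278, 260.2 and 268 CPM in PBS. The LPS 7 day libraries lay below the rest (-0.64 ± 0.04, adjusted p = 5.99e-19, against PBS).

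The EAG, ERG and ELK channels open near rest or with slow kinetics. At LPS 7 days against PBS 5 of the 8 genes fell, where 18.9% of all genes were called lower, and 3 did not pass (Kcnh2, Kcnh6 and Kcnh8). At LPS 1 day Kcnh4 alone among the 8 was called, where 49.1% of all genes were called. Kcnh4 (chromosome 11, 100631202 to 100650768, GRCm39), an ELK channel, stood at 7.05, 6.17 and 7.51 CPM at LPS 7 days, 13.4, 12.8 and 12.3 CPM at LPS 1 day and 21.2, 19.2 and 21.6 CPM in PBS. The groups were in separate ranges with LPS 7 days lowest. Its log2 fold changes against PBS were -1.58 ± 0.11, adjusted p = 3.65e-17 at LPS 7 days and -0.69 ± 0.10, adjusted p = 2.35e-07 at LPS 1 day. Kcnh3, a channel that limits forebrain excitability, had 59.6, 62.7 and 61.5 CPM at LPS 7 days, 123, 118 and 119.7 CPM at LPS 1 day and 113, 114 and 126 CPM in PBS. LPS 1 day and PBS overlapped and LPS 7 days lay below both (-0.94 ± 0.05, adjusted p = 1.59e-21, against PBS). Kcnh7, Kcnh5 and Kcnh1 had log2 fold changes of -0.64 ± 0.06, -0.64 ± 0.13 and -0.46 ± 0.06 at LPS 7 days against PBS. Kcnh1, Kcnh3 and Kcnh7 each overlap a gene on the opposite strand (Hhat, Mcrs1 by 1 base, and Gca). Beside these falls the striatal sum was lower in both LPS groups, and the cerebellar and hindbrain sums were highest at LPS 7 days. The part of these lists was not tested.

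**Figure D4:**
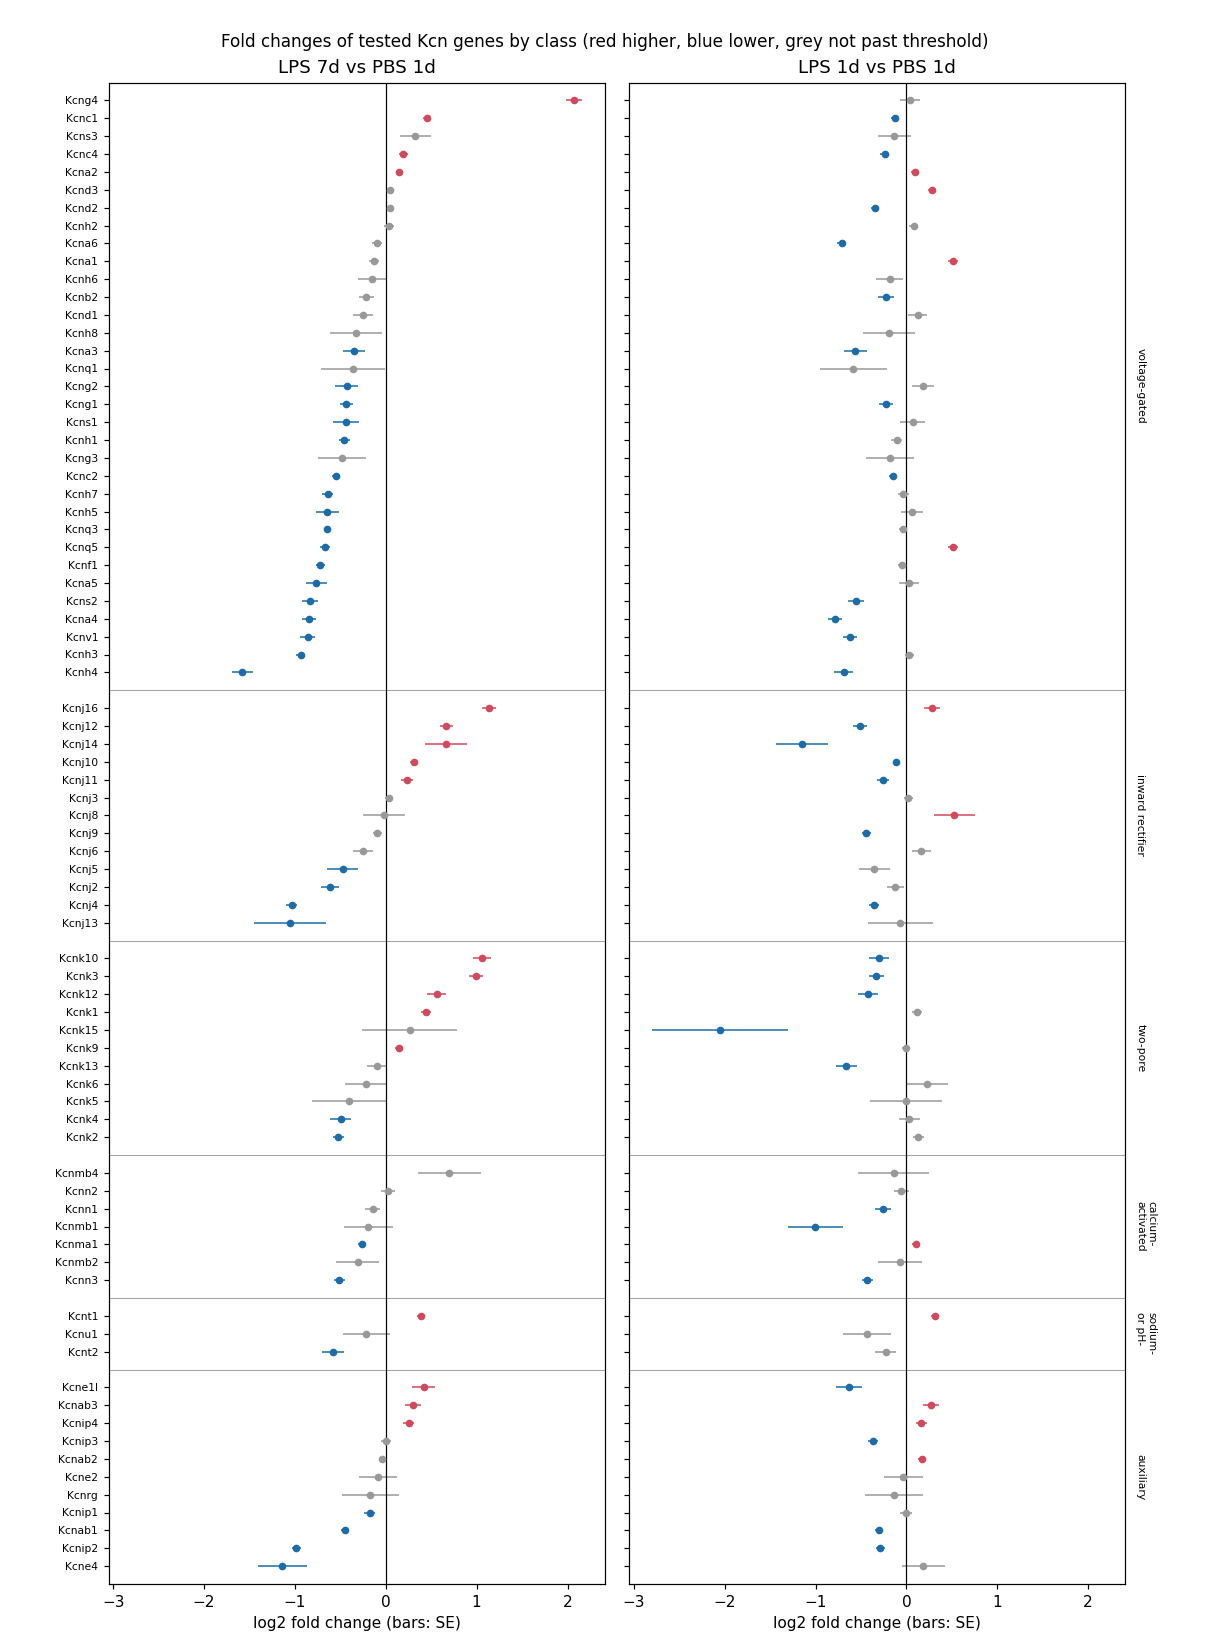
Log2 fold change (x axis, bars are SE) of 78 tested Kcn genes, grouped by class and sorted within it, for LPS 7 days against PBS (left) and LPS 1 day against PBS (right) on 1 scale. Red marks genes called higher and blue lower; Kcnk7 is left out because its PBS libraries held no count. Most voltage-gated genes lie left of 0 at 7 days, with Kcng4 at 2.07 and Kcnh4 at -1.58 as the extremes.

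Strong inward rectifiers of the Kir2 family clamp the membrane near the potassium equilibrium potential. Kcnj4 (chromosome 15, 79367915 to 79389442, GRCm39), the Kir2.3 gene of forebrain, stood at 46.0, 47.4 and 43.4 CPM at LPS 7 days, 75.5, 73.5 and 69.9 CPM at LPS 1 day and 84.6, 95.6 and 100.3 CPM in PBS. The groups did not overlap and LPS 7 days was lowest. The log2 fold change against PBS was -1.03 ± 0.06, adjusted p = 1.06e-20 at LPS 7 days and -0.36 ± 0.06, adjusted p = 7.62e-07 at LPS 1 day. Kcnj12 (chromosome 11, 60913390 to 60961957, GRCm39), the Kir2.2 gene, had 43.1, 46.3 and 42.5 CPM at LPS 7 days, 19.6, 18.8 and 19.9 CPM at LPS 1 day and 27.0, 28.5 and 27.7 CPM in PBS. It was lowest at LPS 1 day and highest at LPS 7 days, with no overlap. Its log2 fold change against PBS was 0.67 ± 0.07, adjusted p = 6.02e-11 at LPS 7 days and -0.51 ± 0.08, adjusted p = 5.63e-07 at LPS 1 day. Within the summed FPKM of the Kir2 genes, Kcnj12 made up 39.1% ± 0.612 at LPS 7 days, 15.9% ± 0.688 at LPS 1 day and 17.5% ± 0.966 in PBS. Kcnj4 made up 51.8% ± 0.723 at LPS 7 days, 76.1% ± 1.11 at LPS 1 day and 75.0% ± 1.34 in PBS (mean ± SD, n = 3).

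Kcnj14, the Kir2.4 gene of motor nuclei, stood at 4.17, 3.58 and 4.32 CPM at LPS 7 days, 1.08, 0.872 and 1.46 CPM at LPS 1 day and 2.0, 2.53 and 3.14 CPM in PBS. The groups did not overlap, but the level was a few CPM. Its fall at LPS 1 day was -1.15 ± 0.29, adjusted p = 8.25e-04 against PBS and its rise between the LPS days 1.81 ± 0.27, adjusted p = 9.00e-08. The rise at LPS 7 days against PBS (0.66 ± 0.23, adjusted p = 0.0194) was lost without LPS 7 day replicate 1 (adjusted p = 0.0539), without LPS 7 day replicate 3 (adjusted p = 0.07) or without PBS replicate 1 (adjusted p = 0.13). Kcnj2, the Kir2.1 gene, averaged 12.3 ± 0.408 CPM at LPS 7 days, 17.2 ± 0.0472 CPM at LPS 1 day and 18.8 ± 1.28 CPM in PBS (SD, n = 3) and fell at LPS 7 days (-0.61 ± 0.10, adjusted p = 1.13e-06). Beside these genes the striatal sum fell in both LPS groups, and the cerebellar and hindbrain sums were above all others at LPS 7 days; their part was not tested.

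G protein-gated Kir3 channels couple inhibitory receptors such as GABA-B and opioid receptors to hyperpolarisation. Kcnj9, the Kir3.3 gene, stood at 128, 126 and 135 CPM at LPS 7 days, 107, 98.7 and 100.5 CPM at LPS 1 day and 141, 135 and 139 CPM in PBS. LPS 1 day was below both other groups (-0.44 ± 0.05, adjusted p = 4.09e-11, against PBS), and LPS 7 days overlapped PBS (-0.09 ± 0.05, adjusted p = 0.114). Kcnj3, the Kir3.1 gene, passed no test, at 118 ± 4.05 CPM at LPS 7 days, 117 ± 2.22 CPM at LPS 1 day and 116 ± 4.0 CPM in PBS (SD, n = 3). Kcnj6, the Kir3.2 gene, averaged 14.5 ± 1.98 CPM at LPS 7 days, 19.3 ± 1.04 CPM at LPS 1 day and 17.3 ± 2.90 CPM in PBS (SD, n = 3) and did not pass against PBS at either time. Kcnj5 averaged 4.36 ± 0.797 CPM at LPS 7 days, 4.75 ± 0.106 CPM at LPS 1 day and 6.04 ± 0.901 CPM in PBS (SD, n = 3), and its fall at LPS 7 days (-0.47 ± 0.17) was lost without LPS 7 day replicate 1 (adjusted p = 0.163), without LPS 7 day replicate 2 (adjusted p = 0.061), without PBS replicate 1 (adjusted p = 0.192) or with DESeq2 (adjusted p = 0.0602).

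Kir4.1 and Kir5.1, encoded by Kcnj10 and Kcnj16, form the channel by which astrocytes and other glia take up potassium. Kcnj10 (chromosome 1, 172168777 to 172201652, GRCm39) stood at 540.3, 544 and 536 CPM at LPS 7 days, 410.3, 401 and 403 CPM at LPS 1 day and 451, 434 and 424 CPM in PBS. The LPS 7 day libraries were above all others. The log2 fold change at LPS 7 days was 0.31 ± 0.04, adjusted p = 2.73e-10 against PBS and 0.42 ± 0.04, adjusted p = 1.18e-14 against LPS 1 day. The fall at LPS 1 day (-0.11 ± 0.04, adjusted p = 0.00874) was lost without PBS replicate 1 (adjusted p = 0.0657). Kcnj16 had 46.4, 40.3 and 44.5 CPM at LPS 7 days, 25.6, 22.1 and 25.0 CPM at LPS 1 day and 21.2, 19.3 and 19.0 CPM in PBS. It was higher at both times than in PBS, with 1.14 ± 0.08, adjusted p = 2.40e-17 at LPS 7 days and 0.28 ± 0.09, adjusted p = 0.00546 at LPS 1 day. The astrocyte marker sum was 2922 to 2996 CPM at LPS 7 days, 3291 to 3334 CPM at LPS 1 day and 2913 to 2997 CPM in PBS. Slc1a2, the main glutamate transporter of astrocytes, made up most of that sum, at means of 1629 CPM at LPS 7 days, 2228 CPM at LPS 1 day and 1918 CPM in PBS. Gene by gene, 5 of the 7 astrocyte markers were called higher and 1 lower at LPS 7 days against PBS, with a median log2 fold change of 0.28, and 5 were higher and 2 lower at LPS 1 day, with a median of 0.22. The oligodendrocyte sum was highest at LPS 7 days, and 5 of its 7 genes were called lower and 1 higher at LPS 1 day against PBS. The part of either list was not tested.

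Kir6 subunits are the pores of ATP-sensitive channels. Kcnj11, the pore of neurons and beta cells, stood at 44.6, 47.1 and 44.1 CPM at LPS 7 days, 32.1, 32.4 and 31.8 CPM at LPS 1 day and 39.1, 38.7 and 37.2 CPM in PBS. All 3 groups were apart, with LPS 1 day lowest: 0.24 ± 0.07, adjusted p = 0.00313 at LPS 7 days and -0.26 ± 0.07, adjusted p = 0.0016 at LPS 1 day, each against PBS. Kcnj8, the pore of pericytes and vascular muscle, averaged 2.79 ± 0.486 CPM at LPS 7 days, 4.09 ± 1.03 CPM at LPS 1 day and 2.83 ± 0.241 CPM in PBS (SD, n = 3). Its call at LPS 1 day (0.53 ± 0.22, adjusted p = 0.0466) was lost without LPS 1 day replicate 1 (adjusted p = 0.126), without LPS 1 day replicate 3 (adjusted p = 0.249), without PBS replicate 1 (adjusted p = 0.13), without PBS replicate 2 (adjusted p = 0.0851), without PBS replicate 3 (adjusted p = 0.054), with library totals (adjusted p = 0.0536), with upper-quartile factors (adjusted p = 0.0562), with DESeq2 (adjusted p = 0.0802) or with the replicate block (adjusted p = 0.0535), and its groups overlapped. The pericyte and smooth muscle sum was 345 to 357 CPM at LPS 7 days. It was 244.2 to 254.6 CPM at LPS 1 day and 236.3 to 243.8 CPM in PBS. Kcnj13, the Kir7.1 gene of choroid plexus, stood at 1.16, 0.247 and 0.651 CPM at LPS 7 days, 1.62, 1.12 and 1.40 CPM at LPS 1 day and 1.47, 1.20 and 1.64 CPM in PBS. Its fall at LPS 7 days (-1.05 ± 0.40, adjusted p = 0.0328) was lost without LPS 7 day replicate 2 (adjusted p = 0.225), without LPS 7 day replicate 3 (adjusted p = 0.0765), without PBS replicate 1 (adjusted p = 0.0718), without PBS replicate 3 (adjusted p = 0.107) or with DESeq2 (adjusted p = 0.0582). The choroid plexus sum moved the same way, at 362 to 376 CPM at LPS 7 days, 501 to 516 CPM at LPS 1 day and 479.6 to 538 CPM in PBS, and its part was not tested. Kcnj13 lies in an overlap with Gigyf2.

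Two-pore channels leak potassium at all voltages. Acid-sensitive TASK channels and stretch- and lipid-gated TREK channels are the leak channels of many thalamic neurons. Kcnk3 (chromosome 5, 30745514 to 30782615, GRCm39), the TASK-1 gene, stood at 52.6, 58.4 and 52.7 CPM at LPS 7 days, 23.5, 21.0 and 21.1 CPM at LPS 1 day and 23.9, 28.0 and 30.6 CPM in PBS. Every LPS 7 day library was above every other library, and every LPS 1 day library was below every PBS library. Against PBS it changed by 0.99 ± 0.08, adjusted p = 6.02e-16 on the log2 scale at LPS 7 days and by -0.33 ± 0.09, adjusted p = 0.00113 at LPS 1 day. Kcnk9, the TASK-3 gene, rose by less at LPS 7 days (0.14 ± 0.04, adjusted p = 0.0085), at 144 ± 2.88 CPM at LPS 7 days, 130.3 ± 4.70 CPM at LPS 1 day and 131 ± 3.27 CPM in PBS (SD, n = 3).

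Of the TREK genes, Kcnk10 (TREK-2) stood at 26.7, 22.7 and 25.0 CPM at LPS 7 days, 10.3, 9.22 and 9.56 CPM at LPS 1 day and 11.9, 12.1 and 11.7 CPM in PBS. The LPS 7 day libraries again lay above all others (1.06 ± 0.10, adjusted p = 4.03e-13, against PBS). Its fall at LPS 1 day (-0.30 ± 0.11) was lost without LPS 1 day replicate 2 (adjusted p = 0.0868), without LPS 1 day replicate 3 (adjusted p = 0.0635), without PBS replicate 1 (adjusted p = 0.0503) or without PBS replicate 2 (adjusted p = 0.0585). Kcnk2 (TREK-1) went the other way, with 38.6, 37.6 and 40.2 CPM at LPS 7 days, 59.7, 59.4 and 64.1 CPM at LPS 1 day and 53.9, 57.5 and 56.0 CPM in PBS. It was lowest at LPS 7 days (-0.52 ± 0.06, adjusted p = 6.97e-10, against PBS) and did not pass at LPS 1 day (0.13 ± 0.06, adjusted p = 0.0585). Kcnk4, the related channel TRAAK, averaged 8.53 ± 0.502 CPM at LPS 7 days, 12.3 ± 1.13 CPM at LPS 1 day and 12.1 ± 0.537 CPM in PBS (SD, n = 3) and fell at LPS 7 days (-0.50 ± 0.12, adjusted p = 6.84e-04); it overlaps Catsperz. Kcnk1 (TWIK-1) averaged 71.2 ± 2.98 CPM at LPS 7 days, 56.6 ± 2.04 CPM at LPS 1 day and 52.3 ± 2.25 CPM in PBS (SD, n = 3) and rose at LPS 7 days (0.45 ± 0.06, adjusted p = 7.11e-09). The cerebellar sum stood higher at LPS 7 days beside Kcnk3, Kcnk10 and Kcnk1, and its part was not tested.

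Kcnk13 (chromosome 12, 99930758 to 100028941, GRCm39), the THIK-1 channel that sets the resting potential of microglia, stood at 13.1, 13.1 and 12.5 CPM at LPS 7 days, 8.63, 8.78 and 8.76 CPM at LPS 1 day and 13.9, 14.4 and 13.2 CPM in PBS. The LPS 1 day libraries were below all others. The log2 fold change was -0.66 ± 0.11, adjusted p = 3.48e-06 at LPS 1 day against PBS, and -0.10 ± 0.11, adjusted p = 0.508 at LPS 7 days against PBS. Over the same libraries 2 of the 7 microglial markers were called higher and 2 lower at LPS 1 day against PBS, and their sum was 245 to 259.8 CPM at LPS 1 day and 237 to 253 CPM in PBS. Kcnk12, the related THIK-2 gene, averaged 22.5 ± 1.35 CPM at LPS 7 days, 11.3 ± 2.23 CPM at LPS 1 day and 15.3 ± 0.948 CPM in PBS (SD, n = 3), with 0.56 ± 0.10, adjusted p = 1.17e-05 at LPS 7 days and -0.42 ± 0.11, adjusted p = 0.00153 at LPS 1 day.

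Kcnk7 (chromosome 19, 5754395 to 5757137, GRCm39), a TWIK-related subunit with no known current of its own, had 4, 10 and 1 counts at LPS 7 days, 12, 16 and 10 counts at LPS 1 day, and 0 counts in each PBS library. Setting PBS at a floor of 3 counts over its 3 libraries (0.0632 CPM), it was at least 4.80-fold higher at LPS 7 days and at least 13.2-fold higher at LPS 1 day. An exact two-sided permutation test over libraries gave p = 0.1 for each, the smallest that 3 against 3 allows. With counts in every LPS library and 0 in every PBS library no other p was possible, so it adds nothing to the counts. The ratio of LPS 7 days to LPS 1 day was 0.363 (95% counting interval 0.186 to 0.676; exact permutation p = 0.2). Kcnk7 passed the filter on low counts only through its LPS libraries, so its calls and bounds against PBS describe the same counts that let it pass. Its call at LPS 7 days against PBS was lost without LPS 7 day replicate 2 (adjusted p = 0.0581). The fall of Kcnk7 between the LPS days, called by edgeR, was lost with DESeq2 (adjusted p = 0.0874). That fall was also lost without LPS 1 day replicate 1 or 2 (adjusted p = 0.0655 and 0.102). The same held without LPS 7 day replicate 1 or 3 (adjusted p = 0.0751 and 0.169). The Y-linked genes had a like presence in LPS libraries and absence in PBS libraries. Kcnk15, the TASK-5 gene, reached at most 1.18 CPM, and its fall at LPS 1 day was lost without LPS 1 day replicate 1 (adjusted p = 0.0633), without LPS 1 day replicate 3 (adjusted p = 0.0618) or without PBS replicate 3 (adjusted p = 0.153). Kcnk5 and Kcnk6 passed no test.

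**Figure D5:**
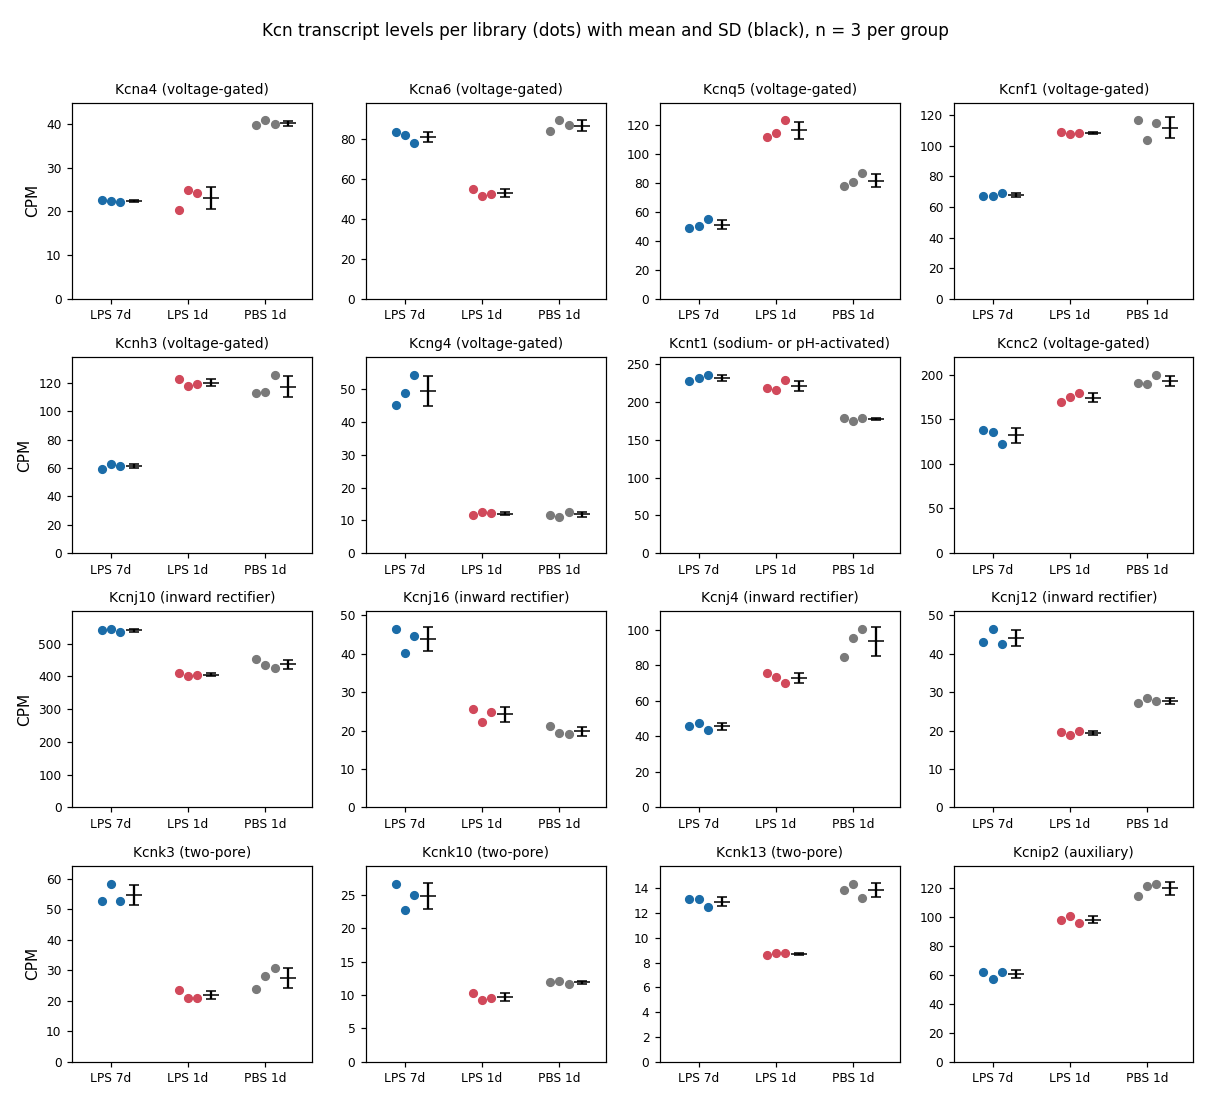
CPM of 16 Kcn genes in every library (dots) with mean and SD (black), n = 3 per group, each panel on its own axis from 0. Kcng4, Kcnk3 and Kcnk10 stand apart at LPS 7 days on the high side, Kcnh3, Kcnf1 and Kcnip2 on the low side, and Kcna6 and Kcnk13 are lowest at LPS 1 day.

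Calcium-activated channels comprise the large-conductance BK channel and the small-conductance SK channels, which end bursts of spikes. Kcnn3, the SK3 gene, stood at 54.5, 52.1 and 47.2 CPM at LPS 7 days, 56.0, 54.1 and 52.6 CPM at LPS 1 day and 73.0, 69.3 and 76.6 CPM in PBS. All LPS libraries were below all PBS libraries, and the LPS groups overlapped: -0.51 ± 0.06, adjusted p = 4.59e-10 at LPS 7 days and -0.43 ± 0.06, adjusted p = 3.86e-08 at LPS 1 day, each against PBS. Kcnma1, the BK pore, had 284, 273 and 272 CPM at LPS 7 days, 361, 349 and 359 CPM at LPS 1 day and 342, 316 and 338 CPM in PBS. LPS 7 days was lowest (-0.27 ± 0.04, adjusted p = 9.09e-08, against PBS). Its small rise at LPS 1 day (0.10 ± 0.04, adjusted p = 0.0248) was lost without LPS 1 day replicate 1 (adjusted p = 0.0791), without LPS 1 day replicate 3 (adjusted p = 0.0827), without PBS replicate 2 (adjusted p = 0.172), with library totals (adjusted p = 0.0615) or with upper-quartile factors (adjusted p = 0.0741). Kcnn1, the SK1 gene, averaged 21.4 ± 1.55 CPM at LPS 7 days, 19.8 ± 0.711 CPM at LPS 1 day and 23.6 ± 1.78 CPM in PBS (SD, n = 3), and its fall at LPS 1 day (-0.25 ± 0.09) was lost without LPS 1 day replicate 3 (adjusted p = 0.0529) or without PBS replicate 2 (adjusted p = 0.0992). Kcnn2, the SK2 gene, passed no test, at 33.9 ± 2.13 CPM at LPS 7 days, 32.2 ± 3.61 CPM at LPS 1 day and 33.3 ± 0.930 CPM in PBS (SD, n = 3).

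The BK beta subunits were at a few CPM. Kcnmb1, the smooth muscle subunit, averaged 2.18 ± 0.561 CPM at LPS 7 days, 1.26 ± 0.386 CPM at LPS 1 day and 2.50 ± 0.432 CPM in PBS (SD, n = 3), and its fall at LPS 1 day (-1.0 ± 0.30) was lost without LPS 1 day replicate 3 (adjusted p = 0.0518). Kcnmb4, the neuronal subunit, averaged 1.74 ± 0.276 CPM at LPS 7 days, 0.968 ± 0.383 CPM at LPS 1 day and 1.05 ± 0.475 CPM in PBS (SD, n = 3). Its rise between the LPS days (0.84 ± 0.36) was lost without LPS 1 day replicate 1 (adjusted p = 0.0873), without LPS 1 day replicate 3 (adjusted p = 0.219), without LPS 7 day replicate 1 (adjusted p = 0.0997), without LPS 7 day replicate 3 (adjusted p = 0.102) or with DESeq2 (adjusted p = 0.0758). Kcnmb2 passed no test. The Kcnmb1 counts may mix with those of Kcnip1.

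Sodium-activated channels open when sodium builds up during firing. Kcnt1 (chromosome 2, 25753746 to 25808285, GRCm39), the Slack channel, stood at 228, 231 and 236 CPM at LPS 7 days, 218, 216 and 229 CPM at LPS 1 day and 178, 176 and 179 CPM in PBS. All LPS libraries were above all PBS libraries, with 0.38 ± 0.04, adjusted p = 1.50e-11 at LPS 7 days and 0.32 ± 0.04, adjusted p = 4.90e-09 at LPS 1 day. Kcnt2, the related Slick channel, had 13.3, 9.32 and 10.1 CPM at LPS 7 days, 13.2, 13.2 and 15.3 CPM at LPS 1 day and 14.2, 15.9 and 19.0 CPM in PBS. It fell at LPS 7 days against PBS (-0.58 ± 0.12, adjusted p = 8.33e-05). Its fall between the LPS days (-0.35 ± 0.12) was lost without LPS 1 day replicate 3 (adjusted p = 0.0945), without LPS 7 day replicate 2 (adjusted p = 0.107) or without LPS 7 day replicate 3 (adjusted p = 0.0552). Kcnu1, a sperm channel, averaged 2.42 ± 0.284 CPM at LPS 7 days, 2.13 ± 0.871 CPM at LPS 1 day and 2.80 ± 0.489 CPM in PBS (SD, n = 3) and passed no test.

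Cytoplasmic Kv beta subunits bind Kv1 channels and speed their inactivation or carry them to the axon. Kcnab1 stood at 117, 121 and 114 CPM at LPS 7 days, 127, 136 and 128 CPM at LPS 1 day and 158, 165 and 159 CPM in PBS. The LPS groups were below PBS at both times: -0.45 ± 0.04, adjusted p = 2.55e-12 at LPS 7 days and -0.30 ± 0.04, adjusted p = 1.24e-07 at LPS 1 day. Kcnab2, the most abundant of the 3 Kv beta genes in FPKM in each group, had 431, 429.7 and 449 CPM at LPS 7 days, 513, 492 and 505 CPM at LPS 1 day and 448, 448 and 448 CPM in PBS. It was raised at LPS 1 day (0.17 ± 0.04, adjusted p = 8.08e-05) and overlapped PBS at LPS 7 days (-0.04 ± 0.04, adjusted p = 0.444); it overlaps Nphp4. Kcnab3 averaged 24.9 ± 1.98 CPM at LPS 7 days, 24.5 ± 1.28 CPM at LPS 1 day and 20.3 ± 1.32 CPM in PBS (SD, n = 3), with 0.30 ± 0.09 at LPS 7 days (lost without LPS 7 day replicate 2 (adjusted p = 0.063)) and 0.28 ± 0.09 at LPS 1 day (lost without LPS 1 day replicate 2 (adjusted p = 0.0542)).

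Single-span KCNE subunits slow or block the channels they join. Kcne1l, an older symbol of the KCNE5 gene, stood at 10.6, 10.2 and 11.2 CPM at LPS 7 days, 5.40, 5.05 and 5.11 CPM at LPS 1 day and 7.87, 7.59 and 8.59 CPM in PBS. No groups overlapped, with LPS 1 day lowest and LPS 7 days highest: 0.42 ± 0.13, adjusted p = 0.00809 at LPS 7 days and -0.63 ± 0.14, adjusted p = 2.92e-04 at LPS 1 day, each against PBS. Kcne4 had 0.981, 1.23 and 1.95 CPM at LPS 7 days, 4.24, 3.68 and 2.68 CPM at LPS 1 day and 2.82, 3.48 and 2.93 CPM in PBS. It fell at LPS 7 days (-1.14 ± 0.27, adjusted p = 6.23e-04, against PBS). Kcne2, a subunit of choroid plexus and heart, and Kcnrg, which holds back assembly of Kv1 channels, passed no test.

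The 11 genes that did not pass the filter were the voltage-gated Kcna7, Kcna10 and Kcnv2, the inward rectifiers Kcnj1 and Kcnj15, the two-pore Kcnk16 and Kcnk18, the calcium-activated Kcnmb3 and Kcnn4, and the auxiliary Kcne1 and Kcne3. Kcnk16, a channel of pancreatic islets, had no count in any library, which allows up to 3 counts in a library (0.176 to 0.231 CPM). Kcnn4, the intermediate-conductance channel of blood and microglial cells, had 6, 3 and 5 counts in the LPS 7 day libraries, 3, 4 and 4 in the LPS 1 day libraries and 7, 7 and 7 in the PBS libraries. Kcnv2 summed to 9 counts at LPS 7 days, 12 at LPS 1 day and 1 in PBS. Each of the other 8 held at most 6 counts in any group. With no filter beyond 1 count, 10 of the 11 were fitted by edgeR: Kcnv2 passed at LPS 1 day against PBS (adjusted p = 0.0397), where PBS held 1 count, and no other was called in any comparison.

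Among 19 genes for channel partners outside the Kcn names (18 tested), 4 rose and 7 fell at LPS 7 days against PBS, 3 rose and 5 fell at LPS 1 day against PBS, and 6 rose and 7 fell between the LPS days. These calls are 61.1%, 44.4% and 72.2% of the 18, where 35.6%, 49.1% and 56.6% of all genes were called in the same comparisons. Abcc8, the sulfonylurea receptor that joins Kcnj11 in ATP-sensitive channels, rose at LPS 7 days (0.71 ± 0.07, adjusted p = 8.21e-13), as Kcnj11 did. Akap5, a scaffold of M-current channels, fell at LPS 7 days (-0.65 ± 0.05, adjusted p = 1.84e-15) and at LPS 1 day (-0.29 ± 0.05, adjusted p = 5.03e-06). Cntnap2, which clusters Kv1 channels beside nodes of Ranvier, fell at LPS 7 days (-0.40 ± 0.04, adjusted p = 5.28e-11). The BK gamma subunits did not move together. Lrrc26, at 3.02 CPM in PBS, rose at LPS 1 day (1.35 ± 0.18, adjusted p = 2.90e-08) and did not pass at LPS 7 days (0.00 ± 0.21). Lrrc38, at 1.21 CPM in PBS, rose at LPS 7 days (1.47 ± 0.29, adjusted p = 3.61e-05) and did not pass at LPS 1 day (-0.40 ± 0.36). Lrrc55, at 36.9 CPM in PBS, fell at LPS 7 days (-0.51 ± 0.08, adjusted p = 3.95e-07) and at LPS 1 day (-0.53 ± 0.08, adjusted p = 2.35e-07). These genes were chosen among the partners after their values were seen.

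Seen over all 3 comparisons, 14 genes moved in opposite directions at the 2 times against PBS (16.9% of the 83, and 7.59% of all genes tested). Of these 11 were called lower at LPS 1 day and higher at LPS 7 days (13.3%, all genes 3.5%), among them Kcne1l, Kcnj10, Kcnj11, Kcnj12, Kcnj14, Kcnk10, Kcnk12, Kcnk3, Kcnc1 and Kcnc4. Kcnma1 and Kcnq5 were among the 3 called higher at LPS 1 day and lower at LPS 7 days (3.61%, all genes 4.08%). A further 17 genes were lower at LPS 7 days against both other groups with no call at LPS 1 day (20.5%, all genes 5.75%), among them Kcnh3, Kcnf1, Kcnq3 and Kcnk2. Another 8 fell in all 3 comparisons (9.64%, all genes 1.87%): Kcnab1, Kcnip2, Kcnj4, Kcnc2, Kcng1, Kcnh4, Kcns2 and Kcnv1. Of these the fall between the LPS days of Kcnab1, Kcng1 and Kcnv1 was lost with library totals (adjusted p = 0.0776, 0.0889 and 0.0564), and for Kcng1 and Kcnv1 also without single libraries. No call was made in any comparison for 13 genes (15.7%, all genes 28.1%). Because the comparisons share their PBS or LPS libraries, these counts are a description and carry no test.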

How the data were processed

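Tissue of 9 libraries was measured by RNA sequencing, in 3 groups of 3 by the labels. The authors made the counts per gene, with TopHat2, HISAT2 and HTSeq and the build GRCm39 named in the submitters' processing notes; which aligner was used, tool versions and the strand setting were not given in these sources. FPKM values were also deposited by the authors, which a recomputation from counts, lengths and totals matched to a largest relative difference of 1.58e-07, and the length, start and end columns (other values), used as deposited.

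The 14837 genes that passed filterByExpr (min.count 10) were fitted with edgeR 4.0.16 (quasi-likelihood, TMM factors 0.983 to 1.03, all 9 libraries, R 4.3.3). The spread leaned on the trend over genes (43.4 prior and 6 residual degrees of freedom, common biological coefficient of variation 4.15%). Tests were two-sided and Benjamini-Hochberg adjusted over the 14837 genes. The SE is the log2 fold change over the square root of F. The method was checked on simulated counts. Alternatives were other scalings, no filter, DESeq2 1.42.0, a test against a fold of 1.5, a replicate block and leaving out each library. Counting intervals and floors (3 counts) cover counting error only.

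Members, classes, marker lists and 19 channel partners were chosen with earlier results of these data known. Described in full are the up to 3 called genes of each class and comparison with the lowest p (6 for voltage-gated), the 2 highest by FPKM, and the 10 largest changes above 1 CPM without overlap; further members were added to account for each family after their values were seen. A few genes, some of which this rule names, are not reported here.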

Additional observations from a re-analysis of the deposited data

Results flagged for a closer look

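In the genes given here LPS at 1 day and LPS at 7 days were called in opposite directions against PBS, and the contrast between the LPS days was itself called by edgeR. The log2 fold change of LPS 7 days against LPS 1 day was 1.81 for Kcnj14, 1.18 for Kcnj12, 0.50 for Kcnj11 and 0.42 for Kcnj10 among inward rectifiers. For two-pore genes it was 1.36 for Kcnk10, 1.32 for Kcnk3 and 0.98 for Kcnk12. Kcne1l stood at 1.05, Kcnc1 at 0.58 and Kcnc4 at 0.43. On the low side of LPS 7 days were Kcnq5 at -1.18 and Kcnma1 at -0.37. The groups of the LPS days did not overlap for any of them. The LPS 1 day call against PBS of Kcnk10, Kcnc1, Kcnj10 and Kcnma1, and the LPS 7 day call of Kcnj14, did not hold leaving out each library. Cerebellar markers stood at 1668 to 1729 CPM at LPS 7 days and 131 to 141 CPM at LPS 1 day, and their part in these differences was not tested.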

How the results depend on the processing

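No called channel gene changed direction under any alternative run (DESeq2 size factors, library totals, upper-quartile factors, no filter, DESeq2, the 2 groups alone, the replicate block, leaving out each library, and a test against a fold of 1.5). The test against a fold of 1.5 left 2 channel genes at LPS 1 day against PBS (voltage-gated 1, inward rectifier 0, two-pore 1, calcium-activated 0, auxiliary 0; all genes 647), 14 at LPS 7 days against PBS (8, 2, 3, 0 and 1 in the same classes; all genes 539) and 16 between the LPS days (7, 3, 3, 0 and 3; all genes 1256). A fold test asks for a larger change by its construction. Leaving Kcnk7 out of the counts, an alternative chosen after seeing the data, gave 44, 52 and 59 calls. Of 45, 53 and 60 calls at LPS 1 day against PBS, LPS 7 days against PBS and between the LPS days, 30, 45 and 46 held under all other alternatives, and leaving out each library gave 36 to 45, 48 to 57 and 52 to 60 channel genes. Calcium-activated calls ran from 1 to 4 at LPS 1 day against PBS (1 without LPS 1 day replicate 3, 2 without PBS replicate 2), and from 1 to 3 between the LPS days (1 without LPS 1 day replicate 3, LPS 7 day replicate 1 or LPS 7 day replicate 3).

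Scaling by library totals moved the median of all genes by at most 0.0565 (log2). It gave 1 rise and 6 falls of inward rectifiers and 0 and 3 of calcium-activated genes at LPS 1 day against PBS, 3 and 3 of auxiliary genes between the LPS days, and raised the share of higher calls among all genes at LPS 7 days against PBS to 57.8%, against 47.1%. Same-numbered replicates did not deviate together (correlations of deviations -0.0232 to 0.0270), so the numbers pair nothing by the data; with the replicate block 44, 54 and 60 channel genes were called. Depth limits genes under about 1 CPM, where a library holds few counts.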
